A study of Mus musculus with 6 samples.

Results

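The genes described here are 65 mouse genes of DNA repair and damage signalling, among 13146 genes that the array names by a single symbol. They were chosen by symbol alone, through the name families of the Fanconi, Rad, Brca, Xrcc, Ercc, Msh, Mlh, Pms and Neil genes, a set of named base excision enzymes, the helicases Blm and Wrn and the kinases Atm, Atr and Chek. Each gene is represented by its brightest probe set over the 6 arrays. Testing needed a level no lower than an array's 40th percentile on 3 or more arrays, which 62 of the 65 genes reached. Bard1, Rad51c and Ercc6 were too dim for the test and ranged from 3.34 to 5.61 log2 over the arrays.

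The cells were sorted as Lin-/Sca1-/cKit+, the fraction of blood-forming tissue that lacks lineage markers and the stem cell antigen Sca1 and carries the receptor Kit. In 3 samples they came from the spleen of leukemic MF1 mice, each named as a numbered mouse. These hosts were wild-type and lethally irradiated, and had received progenitors transduced with AE9a, a truncated form of the AML1-ETO fusion protein of human acute myeloid leukemia. The labels do not say how many of the sorted cells were the hosts' own. In the other 3 samples the cells came from the bone marrow of wild-type MF1 mice, named in the plural, so that pooling is possible. All mice were 12 to 16 weeks old. Leukemia, transplantation and organ therefore changed together and cannot be told apart, and p-values reflect the spread among these 6 samples alone, which may be technical.

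Cells mend DNA through several pathways that act on different lesions. Base excision repair removes single damaged bases, nucleotide excision repair cuts out bulky lesions, and mismatch repair corrects replication errors. Broken ends are rejoined directly or copied from the sister chromatid by homologous recombination, the Fanconi proteins handle crosslinks, and the kinases Atm and Atr signal the damage to the cell cycle. In blood formation these pathways are known for protecting stem and progenitor cells, and inherited Fanconi defects lead to marrow failure and leukemia.

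The 6 arrays had median deposited intensities of 71.6 to 79.9. Correlations between arrays across probe sets (Pearson's r) were 0.992 to 0.994 within wild-type, 0.969 to 0.978 within leukemia and 0.902 to 0.925 between the groups. Leukemia array 1 had the lowest array weight (0.191 against 0.831 to 2.82). It alone of the leukemia arrays shared a fluidics run, taken from the hybridization date entry of the run records, with the wild-type arrays. The 18S ribosomal control probe set read 11.14 to 12.35 log2 on the leukemia arrays and 7.77 to 9.41 on the wild-type arrays. Of the sort markers, Kit was at 9.34 to 9.80 in leukemia and 10.35 to 10.42 in wild-type, with 6 of 7 sort and progenitor genes lower (summed intensity 5300 to 6220 against 21700 to 24600), and Ly6a, the gene of Sca1, is not analysed here. Both measured T cell markers (Cd8a and Cd5) and 2 of 4 B cell markers (Ms4a1 and Cr2) lay below the 40th percentile on all 6 arrays. The summed intensity of B cell markers was 112 to 274 in leukemia against 244 to 323 in wild-type, and summed T cell markers 23.8 to 26.5 against 25.5 to 28.2. Among 5 measured erythroid genes 2 were higher in leukemia (Alas2 and Slc4a1), with a summed intensity of 4750 to 8120 against 4460 to 7680. Of 6 macrophage genes, of which Adgre1 lay below that percentile throughout, 4 were lower, and their sum was 147 to 193 against 1610 to 2600. The 5 mature neutrophil genes, of which Mmp8 lay below that percentile throughout, summed to 88.3 to 93.9 against 141 to 660. The 7 endothelial and stromal genes, with Cdh5, Col1a1 and Col3a1 below it throughout, had 1 gene higher (Tek) and 2 lower, and summed to 256 to 513 against 532 to 595. Their part in the results was not tested. In bulk samples, fewer cells of a type and less RNA per cell cannot be told apart.

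DNA repair genes shifted little and in both directions in the leukemia cells. Of the 62 tested genes 22 changed, 9 higher and 13 lower (limma, adjusted p under 0.05), or 35.5% against 42.1% of all 9715 tested genes. Over all tested genes 16.9% were higher and 25.2% lower. Among these 62 genes only Ercc2, a helicase of transcription factor TFIIH, and Neil1, a glycosylase that removes oxidised bases, changed at least 2-fold. That is 3.23% of the tested repair genes, whereas 19.0% of all tested genes changed by as much. The count of 2 became 4 without leukemia replicate 3, where Parp1 and Xrcc3 joined, and 1 with log2(value + 16), with quantile normalization and with a stricter filter, where Ercc2 alone was left. Without leukemia replicate 1 Parp3 took the place of Neil1, and without wild-type replicate 3 Xrcc3 did. It was 3 with the mean of probe sets, where Neil3 joined, and with shared-ending probe sets left out, where Rad52 joined. With the fluidics run as a block, which compares leukemia array 1 alone with wild-type, it was 9 (14.5%, against 25.1% of all tested genes). The largest change among these 62 genes was 2.42-fold, and their median absolute change was 0.35 log2 against 0.40 over all tested genes. The median signed change was -0.07 (-0.09 over all). With each array centred on its median, 13 of the repair genes were higher and 10 lower, or 37.1% against 41.0% of all tested genes. Centring moved the median signed change to 0.00 (-0.01 over all).

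**Figure D1:**
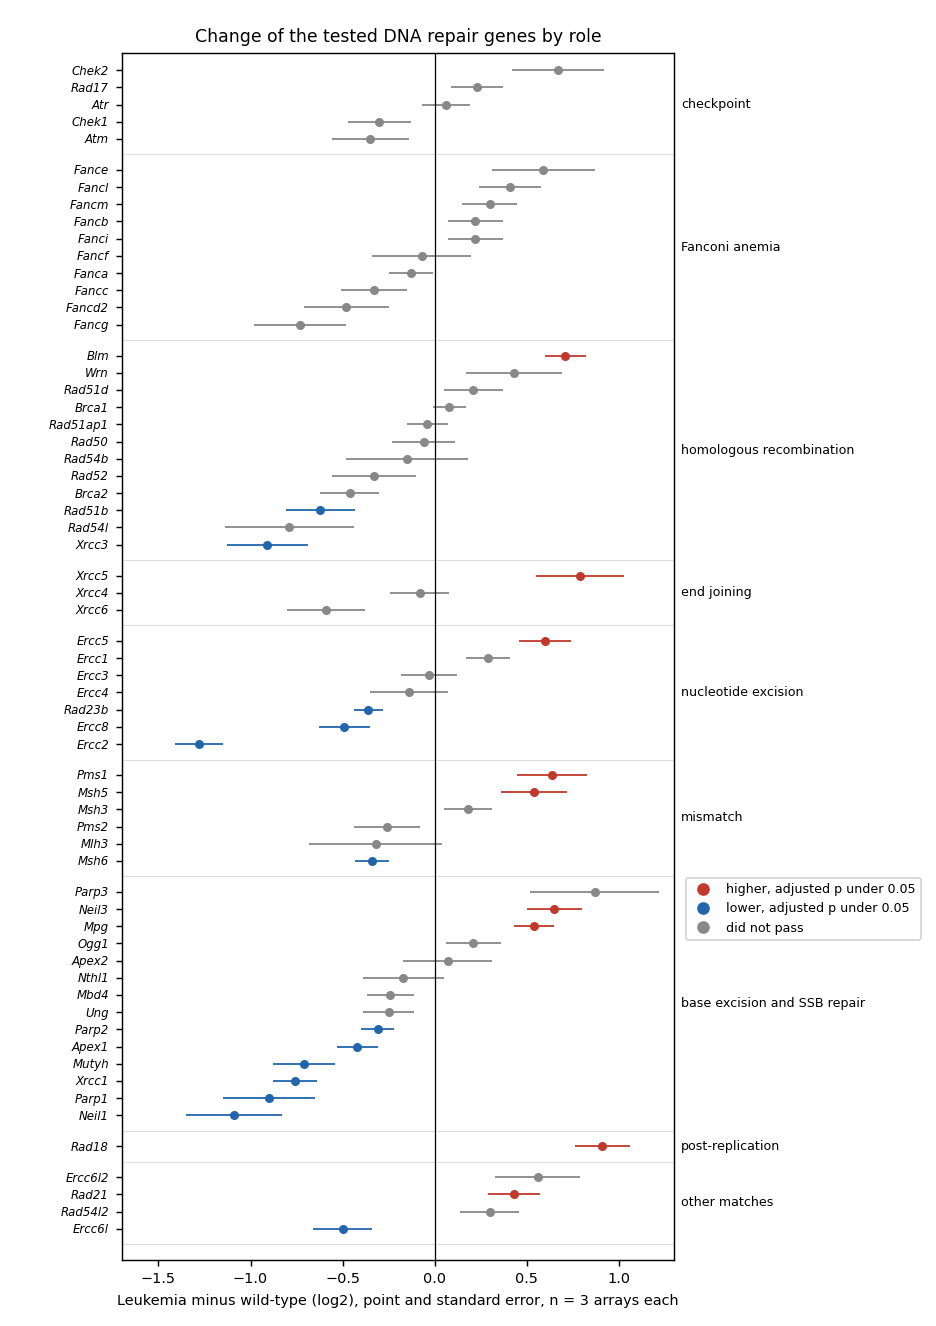
Change of each of the 62 tested repair genes in log2 units (horizontal axis, positive where leukemia was higher) with its standard error, grouped by role. Red points were higher, blue points lower and grey points did not pass (limma, adjusted p under 0.05). No Fanconi or checkpoint gene passed, and the base excision group holds 6 blue points against 2 red ones.

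**Figure D2:**
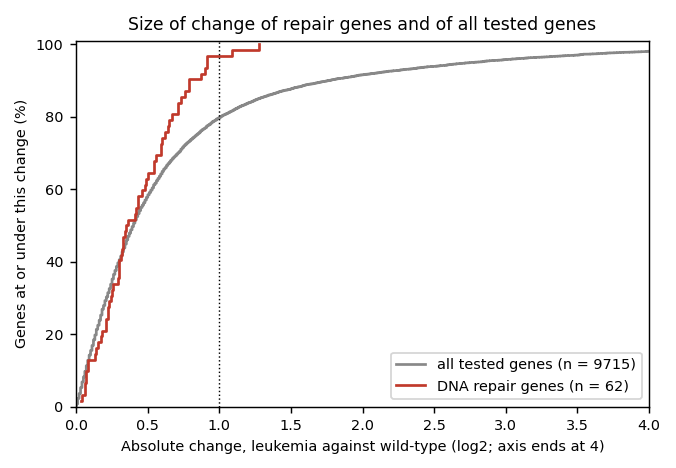
Cumulative share of genes (percent) against the absolute change in log2 units for the 62 repair genes (red) and all 9715 tested genes (grey). The dotted line marks a 2-fold change; the red curve ends at 1.28, while the grey curve runs past the end of the axis at 4.

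Groups did not overlap for 36 of the 62 tested genes (58.1%), close to the 59.2% of all tested genes. The spread within groups was unequal, with a median SD of 0.22 log2 in leukemia against 0.09 in wild-type. Among the 22 calls, 4 were kept under every alternative processing that could be run, those of Ercc2, Xrcc1, Blm and Rad18. No change of the 22 genes turned in sign under any of them. Their groups do not overlap, so leaving out an array or blocking by fluidics run could not have turned a sign. Mpg was also kept whenever 1 array was left out. Each of the other 17 was lost without at least 1 wild-type array: 10, 10 and 6 repair genes passed without wild-type replicates 1, 2 and 3, while 29.3%, 28.2% and 27.2% of all tested genes did. Leaving out any 1 wild-type array ended the calls of Apex1 and Parp1 (also of Msh5, Msh6, Parp2, Pms1, Rad21 and Ercc6l). Neil1 and Neil3 were lost without wild-type replicate 3, Ercc5, Mutyh and Xrcc5 without replicates 2 or 3, Rad23b, Ercc8 and Rad51b without replicates 1 or 3, and Xrcc3 without replicates 1 or 2. Without leukemia replicate 2 the calls of Ercc6l, Msh5, Parp2, Pms1, Rad51b and Xrcc5 were lost, and without replicate 3 those of Ercc8, Msh5, Pms1, Rad21 and Xrcc5.

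The promoters of those 4 genes are shown because their calls were the most stable. Ercc2, Xrcc1 and Blm have 1 probe set each, so averaging probe sets could not alter their values. For Xrcc1 the alternative without shared-ending probe sets could not be run. Each run is the 250 bases before the transcription start, 5′ to 3′ on the strand of the gene, from RefSeq on GRCm38.p6, and where a gene has several starts the most upstream one was used. Capitals mark matches, on either strand, to CCAAT, to the GC box GGGCGG and to the ETS word CCGGAAG.
Rad18, chr6:112696671-112696920, minus strand: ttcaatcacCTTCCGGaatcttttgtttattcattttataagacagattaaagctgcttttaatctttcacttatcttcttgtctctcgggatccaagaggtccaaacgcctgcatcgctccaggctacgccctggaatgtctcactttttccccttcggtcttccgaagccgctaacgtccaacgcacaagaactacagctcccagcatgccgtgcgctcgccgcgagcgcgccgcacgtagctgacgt
Blm, chr7:80534999-80535248, minus strand: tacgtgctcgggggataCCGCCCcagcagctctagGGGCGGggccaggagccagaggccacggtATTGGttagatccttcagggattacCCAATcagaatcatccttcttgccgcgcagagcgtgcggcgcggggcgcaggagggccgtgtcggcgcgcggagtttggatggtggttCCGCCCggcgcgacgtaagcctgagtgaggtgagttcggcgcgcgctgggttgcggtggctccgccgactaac
Ercc2, chr7:19381767-19382016, plus strand: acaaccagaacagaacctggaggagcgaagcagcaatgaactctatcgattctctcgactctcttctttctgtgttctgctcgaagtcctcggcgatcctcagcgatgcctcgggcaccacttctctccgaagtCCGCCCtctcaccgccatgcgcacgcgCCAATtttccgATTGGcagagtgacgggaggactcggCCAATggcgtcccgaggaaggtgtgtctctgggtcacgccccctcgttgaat
Xrcc1, chr7:24546449-24546698, plus strand: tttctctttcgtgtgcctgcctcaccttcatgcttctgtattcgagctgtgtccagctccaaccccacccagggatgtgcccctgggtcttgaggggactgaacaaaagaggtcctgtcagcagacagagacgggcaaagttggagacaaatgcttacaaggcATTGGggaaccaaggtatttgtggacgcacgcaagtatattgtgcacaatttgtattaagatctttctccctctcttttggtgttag
Blm, which rose, carries 2 CCAAT and 3 GC box matches, and Ercc2, which fell, carries 3 CCAAT and 1 GC box match. The Xrcc1 window holds a single CCAAT match and the Rad18 window a single ETS match, beside a TATAAA match that is not marked. Matches of one kind were thus present before a gene that rose and before one that fell. A match is a description of the letters and not a binding site.

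None of the 5 kinases and checkpoint genes that signal damage passed the limma test (42.1% of all tested genes did), and 1 (Chek2) had an unadjusted p under 0.05. Atr, the kinase that answers stalled replication, was at 8.17, 8.15 and 8.17 log2 in wild-type and at 8.04, 8.26 and 8.38 in leukemia (change 0.06 ± 0.13 SE, limma adjusted p = 0.734). The leukemia values lay on both sides of the wild-type ones. Atm, the kinase that answers broken ends, was at 8.22 to 8.45 in wild-type and at 7.50, 8.20 and 8.21 in leukemia (change -0.35, limma adjusted p = 0.230). Chek1, the effector kinase of Atr, changed by -0.30 (limma adjusted p = 0.181), and a further probe set of it gave 0.51 while 2 others gave -0.35 and -0.51. Chek2, the effector kinase of Atm, was at 8.30, 7.88 and 8.29 in wild-type and at 8.30, 8.96 and 9.21 in leukemia, so that leukemia array 1 was level with the highest wild-type array (change 0.67 ± 0.25, limma adjusted p = 0.0703). Without that array the change was 0.93 and passed (limma adjusted p = 0.00541). Rad17, which loads the checkpoint clamp, gave 0.23 (limma adjusted p = 0.211).

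The Fanconi genes encode a nuclear core complex, the monoubiquitylated pair Fancd2 and Fanci, and the translocase Fancm. None of the 10 passed in limma, against 42.1% of all tested genes (2, Fancg and Fancl, had an unadjusted p under 0.05). Changes ran from -0.73 for Fancg to 0.59 for Fance, with a median of 0.07. Fancg, a core subunit, was at 7.05 ± 0.05 (SD, n = 3) in wild-type and at 5.76, 6.53 and 6.67 in leukemia. All leukemia values were lower, yet the spread kept it from passing (limma adjusted p = 0.0534), and it passed without leukemia replicate 1 (change -0.45, limma adjusted p = 0.0293). Its further probe set gave -0.83. Fance, another core subunit, was at 7.34 to 7.54 in wild-type and at 7.43, 8.57 and 8.04 in leukemia, where array 1 again lay among the wild-type values (limma adjusted p = 0.127).

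Among homologous recombination genes 1 of 12 rose and 2 fell (25.0%, against 42.1% of all tested genes). Blm, the RecQ helicase that dissolves recombination intermediates, rose from 9.26, 9.32 and 9.33 to 9.82, 10.15 and 10.06 log2 (change 0.71 ± 0.11 SE, 1.63-fold, limma adjusted p = 0.00254). Every leukemia array was above every wild-type array. Xrcc3 and Rad51b, which act in strand exchange during recombination, both fell. Xrcc3 went from 7.19, 7.31 and 6.98 to 5.88, 6.24 and 6.63 (change -0.91 ± 0.22, limma adjusted p = 0.0161), but a further probe set gave -0.02 with overlapping groups, and the mean of both gave -0.47 (limma adjusted p = 0.0430). The change of Rad51b was -0.62 (limma adjusted p = 0.0364), and its call did not survive leaving out leukemia replicates 1 or 2 or wild-type replicates 1 or 3.

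Brca1, a ubiquitin ligase that promotes end resection, was at 9.04, 9.09 and 9.05 in wild-type and at 9.19, 9.07 and 9.15 in leukemia (change 0.08 ± 0.09, limma adjusted p = 0.502). Its further probe sets above the filter gave 0.57 and 0.27 and did not pass either. Brca2, a mediator of recombination, was lower on every leukemia array (8.65, 8.85 and 8.53 against 7.94, 8.38 and 8.34) without passing (change -0.46 ± 0.16, limma adjusted p = 0.0589). The motor protein gene Rad54l was at 9.14 to 9.25 in wild-type and at 7.54, 8.81 and 8.90 in leukemia. Leukemia array 1 enlarged that difference (change -0.79, limma adjusted p = 0.107, against -0.35 without it, adjusted p = 0.0162, limma), and further probe sets above the filter gave 0.02 and -0.21. Rad52 gave -0.33 with its brightest probe set and -1.35 with another, which passed when each probe set was tested alone (limma adjusted p = 0.00830 over 16327 probe sets). Wrn, the helicase of Werner syndrome, gave 0.43 (limma adjusted p = 0.218) and 1.05 with its other probe set (limma adjusted p = 0.0646). Rad51d gave 0.21 (limma adjusted p = 0.333), and its further probe sets gave -0.12 and 0.32.

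**Figure D3:**
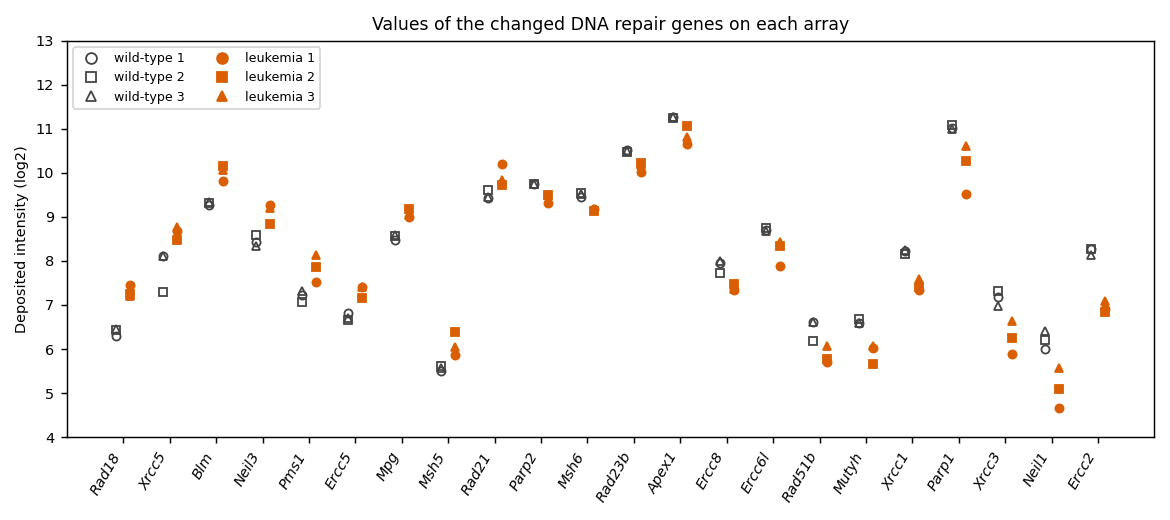
Deposited intensity (log2, vertical axis) of the 22 changed repair genes on each array, ordered from the largest rise (Rad18) to the largest fall (Ercc2). Open symbols are wild-type and filled symbols leukemia arrays, with 1 shape per replicate number; the groups do not overlap for any of them, and leukemia array 1 is the lowest for Parp1 (9.52) and Neil1 (4.67).

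The subunits of the Ku ring, which caps broken ends before they are joined, stood on opposite sides. Xrcc5 was at 8.12, 7.29 and 8.11 in wild-type and at 8.67, 8.47 and 8.77 in leukemia (change 0.79 ± 0.24, limma adjusted p = 0.0362). Wild-type array 2 lay well below the other wild-type arrays (change 0.52 without it, limma adjusted p = 0.0526), and the call was lost without each of wild-type replicates 2 and 3 and leukemia replicates 1, 2 and 3. Xrcc6 was at 8.97, 8.83 and 8.96 in wild-type and at 7.85, 8.54 and 8.59 in leukemia (change -0.59 ± 0.21, limma adjusted p = 0.0583), and passed without leukemia replicate 1 (change -0.35, limma adjusted p = 0.0212). Whether the changes of these subunits differ was not tested. Prkdc, the kinase that Ku recruits, fell by 0.60 (limma adjusted p = 0.0112). Xrcc4, the partner of the end-joining ligase, gave -0.08 (limma adjusted p = 0.710).

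Nucleotide excision repair held the largest fall among the tested genes of the chosen families. Ercc2, the helicase that opens DNA around a lesion and is also a subunit of TFIIH, went from 8.28, 8.28 and 8.14 to 6.92, 6.84 and 7.09 log2 (change -1.28 ± 0.13 SE, limma adjusted p = 0.000446). The leukemia values lay close together and far below the wild-type ones, and the change ran from -1.35 to -1.22 when a leukemia array was left out. Its helicase partner in TFIIH, Ercc3, was at 8.23 to 8.50 in wild-type and 8.17 to 8.56 in leukemia (change -0.03, limma adjusted p = 0.892). Of 7 further TFIIH genes outside the chosen families only Gtf2h4 passed, and it fell by 0.94 (limma adjusted p = 0.00895).

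Damage recognition genes moved in opposing directions. Rad23b, the partner of the lesion sensor Xpc, fell from 10.52, 10.47 and 10.50 to 10.01, 10.22 and 10.18 (change -0.36 ± 0.08, limma adjusted p = 0.0127). Xpc itself fell from 8.85, 9.28 and 9.09 to 7.43, 7.28 and 7.44 (change -1.68 ± 0.15, 3.21-fold, limma adjusted p = 0.000189). Ddb2, a sensor of ultraviolet lesions, rose by 1.15 (limma adjusted p = 0.00709), while its partner Ddb1 fell by 0.41 (limma adjusted p = 0.00868). Ercc8, needed for repair of transcribed strands, fell by 0.49 (limma adjusted p = 0.0254), whereas Uvssa, another gene of that branch, rose by 0.88 (limma adjusted p = 0.0220). The Uvssa call was lost without any 1 of the wild-type arrays and with the mean of probe sets (change 0.55, limma adjusted p = 0.0616). Ercc5, the nuclease that cuts on the 3′ side, rose from 6.81, 6.67 and 6.71 to 7.41, 7.17 and 7.42 (change 0.60 ± 0.14, limma adjusted p = 0.0143). The nuclease pair that cuts on the 5′ side did not pass, with Ercc1 at 0.29 (limma adjusted p = 0.101) and Ercc4 at -0.14 (limma adjusted p = 0.618). Further probe sets of Ercc4 above the filter gave 0.72 and 0.36, so that its sign depends on the probe set. Xab2, which links repair to stalled polymerase, fell by 1.00 (limma adjusted p = 0.00142).

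In mismatch repair 2 of 6 tested genes rose and 1 fell. Msh6, which recognises single mismatches, went from 9.46, 9.55 and 9.52 to 9.19, 9.14 and 9.18 (change -0.34 ± 0.09, limma adjusted p = 0.0191). The groups did not overlap, but the call was lost when arrays were centred on their medians (change -0.26, limma adjusted p = 0.0616). Pms1, a MutL relative, rose by 0.64 (7.06 to 7.32 in wild-type and 7.53 to 8.13 in leukemia, limma adjusted p = 0.0300). Msh5, best known from meiosis, rose by 0.54 (5.50 to 5.61 against 5.86 to 6.38, limma adjusted p = 0.0473). Its wild-type values lay close to the testing limit, which was 5.51 to 5.54 on those arrays, and with log2(value + 16) the change was 0.43. A further Msh5 probe set gave 0.44 and did not pass when tested alone (limma adjusted p = 0.132). Pms2, whose endonuclease nicks the new strand, gave -0.26 (limma adjusted p = 0.292) and 0.04 with a further probe set. Mlh3 gave -0.32 (limma adjusted p = 0.493), with leukemia array 1 at 6.02 and the others at 7.05 and 7.47. Msh3, which recognises larger loops, gave 0.18 (limma adjusted p = 0.296).

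Base excision and single-strand break repair genes made up 8 of the 22 calls, 6 lower and 2 higher among 14 tested (57.1%, against 42.1% of all tested genes). The share was also 57.1% in nucleotide excision repair, with 1 higher and 3 lower of 7 tested. It was 20.0% among the 10 tested base excision genes outside the chosen families. Xrcc1, the scaffold that gathers the enzymes of break repair, fell from 8.23, 8.16 and 8.24 to 7.35, 7.41 and 7.58 (change -0.76 ± 0.12 SE, 1.70-fold, limma adjusted p = 0.00318). Parp1, which senses strand breaks and marks them with poly(ADP-ribose), fell from 11.03 ± 0.05 (SD, n = 3) to 9.52, 10.27 and 10.62 (change -0.90 ± 0.25, limma adjusted p = 0.0279). Leukemia array 1 lay well below the other leukemia arrays, and without it the change was -0.59 (limma adjusted p = 0.00617). Of the further Parp1 probe sets 2 fell when each was tested alone (-0.56 and -0.82), and 1 gave 0.13 with overlapping groups. The mean of the probe sets gave -0.54 (limma adjusted p = 0.0494). Its relative Parp2 fell from 9.74 on each wild-type array to 9.32, 9.49 and 9.50 (change -0.31, limma adjusted p = 0.0341), a call lost without any 1 of the wild-type arrays, without leukemia replicate 2 and on centring. Parp3, a further relative, was at 5.24 to 6.10 in wild-type and 5.86 to 6.98 in leukemia (change 0.87, limma adjusted p = 0.0829). Another Parp3 probe set above the filter gave 0.03 with overlapping groups, and the mean of probe sets gave 0.48 (limma adjusted p = 0.190). Tdp1, which frees DNA ends from trapped topoisomerase and works with Xrcc1, fell by 0.58 (limma adjusted p = 0.0177), while the ligase Lig3 gave -0.31 (limma adjusted p = 0.192) and the polymerase Polb gave -0.10 (limma adjusted p = 0.610).

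The glycosylases, which cut out damaged bases, were divided. Neil1 fell from 6.21 ± 0.21 (SD, n = 3) to 4.67, 5.10 and 5.57 (change -1.09 ± 0.26, limma adjusted p = 0.0136), and leukemia arrays 1 and 2 read under the testing limit, so that this size depends on the handling of background. Mutyh, which removes adenine opposite oxidised guanine, fell from 6.60, 6.68 and 6.58 to 6.02, 5.66 and 6.06 (change -0.71 ± 0.17, limma adjusted p = 0.0137). Neil3, the relative of Neil1 that acts in replicating cells, rose from 8.44, 8.59 and 8.33 to 9.26, 8.84 and 9.20 (change 0.65 ± 0.15, limma adjusted p = 0.0130). Mpg, which removes alkylated purines, rose from 8.47, 8.57 and 8.59 to 8.99, 9.19 and 9.05 (change 0.54 ± 0.11, limma adjusted p = 0.00761). With the mean of its probe sets the Mpg change was 0.34 and did not pass (limma adjusted p = 0.0771), whereas Neil3 gave 1.05 (limma adjusted p = 0.0340). Ung gave -0.25 and Mbd4 gave -0.24 (both limma adjusted p = 0.174), though a further Mbd4 probe set gave 0.30. Apex1, the endonuclease that cuts at the emptied site, fell from 11.27, 11.25 and 11.27 to 10.66, 11.07 and 10.81 (change -0.42 ± 0.11, limma adjusted p = 0.0192), and its 2 further probe sets gave -0.63 and -0.44.

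Rad18 showed the largest rise among the tested genes of the chosen families. It encodes the ubiquitin ligase that marks the sliding clamp at stalled forks and so calls in translesion polymerases. Its values went from 6.29, 6.44 and 6.46 to 7.46, 7.24 and 7.21 log2 (change 0.91 ± 0.15 SE, 1.88-fold, limma adjusted p = 0.00287), and its further probe sets gave 0.45, 0.62 and 0.88, each without overlap between the groups. Among its partners, the ubiquitin-conjugating enzyme Ube2a rose by 0.25 (limma adjusted p = 0.0396), and Ube2b gave 0.34 (limma adjusted p = 0.0567). The translesion polymerase Polk rose from 7.01, 6.78 and 6.91 to 8.05, 8.27 and 8.42 (change 1.35 ± 0.15, limma adjusted p = 0.000576), and Mad2l2, a subunit of polymerase zeta, rose by 1.02 (limma adjusted p = 0.0115). Other translesion genes did not pass over all arrays and had either sign. Rev3l, the catalytic subunit of polymerase zeta, was at 8.40 to 8.47 in wild-type and 8.61 to 9.12 in leukemia, without overlap (change 0.34, limma adjusted p = 0.129). Poli gave -0.71 (limma adjusted p = 0.0785) and Rev1 gave -0.59 (limma adjusted p = 0.0555), and without leukemia replicate 1 both passed, at -0.39 (limma adjusted p = 0.0388) and -0.79 (limma adjusted p = 0.00356). Polh gave -0.39 (limma adjusted p = 0.527), with 4.26 on leukemia array 1 and 5.88 and 6.12 on the others, and 0.19 without that array (limma adjusted p = 0.400).

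**Figure D4:**
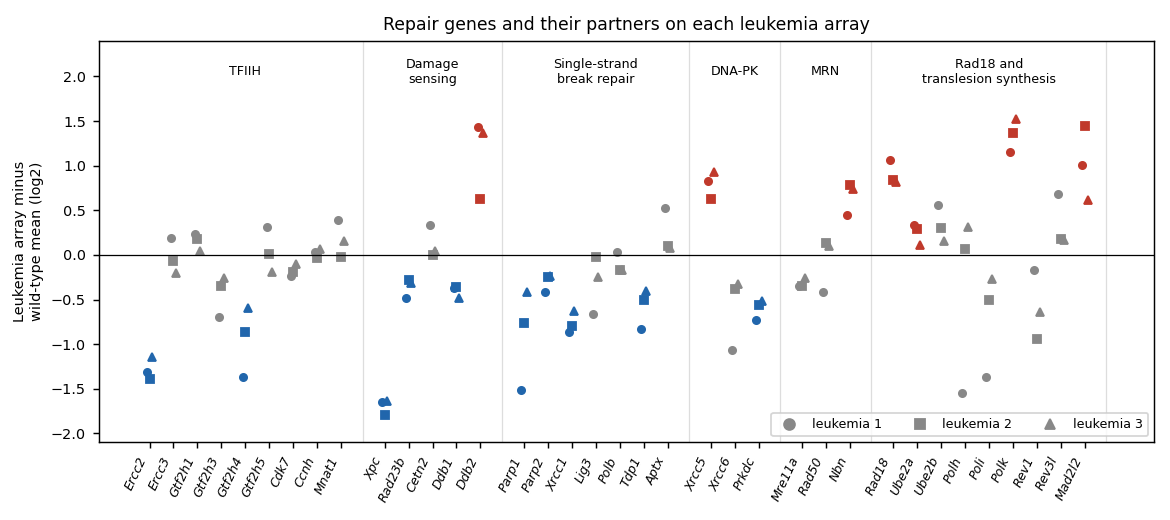
Each leukemia array minus the wild-type mean (log2, vertical axis) for repair genes and their partners, in 6 complexes or pathways; shapes are the leukemia replicates, red genes were higher, blue genes lower and grey genes did not pass (limma, adjusted p under 0.05). Ercc2 and Xpc lie below -1 on every array, Polk lies above 1 on every array, and Parp1 spreads from -1.51 on array 1 upwards.

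The name rule also took in 4 genes with other main roles. Rad21, a cohesin subunit that holds sister chromatids together, rose by 0.43 (9.42 to 9.60 against 9.72 to 10.21, limma adjusted p = 0.0491). Its further probe sets gave 0.45 and 1.96, so the size depends on the probe set, and without leukemia replicate 1 the change was 0.28 (limma adjusted p = 0.0405). Ercc6l, a translocase on the DNA threads of anaphase, fell by 0.50 (8.67 to 8.75 against 7.89 to 8.43, limma adjusted p = 0.0457). Both calls were lost without any 1 of the wild-type arrays. Ercc6l2 (0.56, limma adjusted p = 0.0878) and Rad54l2 (0.30, limma adjusted p = 0.168) did not pass.

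A wider list of 100 repair genes outside these families, of which 85 were tested, also held both directions. In it 9 genes rose and 17 fell, or 30.6% against the 42.1% of all tested genes, with a median change of -0.12. Changes of at least 2-fold were found for 7 of the 85 (8.24%, against 19.0% of all tested genes), up to 3.21-fold for Xpc. Of the 25 tested genes of the response to broken ends 1 rose and 3 fell (16.0%). Nbn, which recruits Atm to breaks, rose from 8.82, 8.72 and 8.89 to 9.26, 9.59 and 9.55 (change 0.66 ± 0.12, limma adjusted p = 0.00579). Its partners in the same complex gave -0.06 for Rad50 and -0.33 for Mre11a and did not pass. Mdc1, the scaffold at marked chromatin, fell by 0.82 (limma adjusted p = 0.0258) and the helicase Recql5 fell by 0.59 (limma adjusted p = 0.0336). Of the 5 end-joining genes 2 fell, Prkdc and the polymerase Poll, which fell by 1.19 (limma adjusted p = 0.00656).

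In Atr signalling 1 of 11 rose and 4 fell (45.5%, against 42.1% of all tested genes). Timeless, which protects forks, fell from 10.25, 10.39 and 10.24 to 9.20, 9.43 and 9.37 (change -0.96 ± 0.10, limma adjusted p = 0.000402), while its partner Tipin rose from 10.70, 10.64 and 10.61 to 11.11, 10.88 and 10.88 (change 0.31 ± 0.08, limma adjusted p = 0.0261). The fork protection pair thus passed on opposite sides, and neither gene overlapped between the groups. The Tipin call was lost without any 1 of the wild-type arrays and without the intensity trend (limma adjusted p = 0.0652). Atrip, which brings Atr to single-stranded DNA, fell by 0.58 (limma adjusted p = 0.0198). Of 14 nucleotide excision genes 2 rose and 4 fell (42.9%). Of 10 base excision genes 0 rose (0 also at an unadjusted p under 0.05 in limma) and 2 fell (20.0%). These were Tdp1 and the ligase Lig1 (fell by 0.24, limma adjusted p = 0.0332). Among 20 genes of direct reversal, translesion synthesis and crosslink repair 5 rose and 2 fell (35.0%). Mgmt, which reverses guanine alkylation, fell from 6.90, 6.75 and 6.79 to 5.03, 6.23 and 5.05 (change -1.38 ± 0.33, limma adjusted p = 0.0152), and Wdr48, the cofactor of the Fanconi deubiquitylase Usp1, fell by 1.24 (limma adjusted p = 0.0153). Leaving out any 1 wild-type array also ended the calls of Mdc1, Recql5, Atrip, Tdp1, Lig1 and Mgmt. Prkdc was lost without wild-type replicates 1 or 2, and Wdr48 without replicates 2 or 3.

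Many repair genes follow the cell cycle, so lists of its phases are set beside them. Of 17 tested S phase genes 0 rose and 6 fell (median -0.13), all 6 of them Mcm helicase genes, and no other had an unadjusted p under 0.05 in limma. Of 19 mitosis genes 7 rose and 0 fell (median 0.23), with 9 higher and 0 lower at an unadjusted p under 0.05 in limma. Among 11 E2F and retinoblastoma family genes 3 rose (E2f7, E2f2 and Rb1) and 2 fell (E2f6 and E2f1). The shares changed were 35.3% for S phase, 36.8% for mitosis and 45.5% for the E2F list, against 42.1% of all tested genes. Over all tested genes 16.9% were higher and 25.2% lower. The part of proliferation in the repair gene values was not tested.

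Leukemia array 1 read low for a large share of the repair genes. It also had the widest gaps between 3′ and 5′ control probe sets, a measure of RNA quality, at 0.31 log2 for Gapdh (-0.14 to 0.08 on the other arrays) and 0.70 for Actb (0.31 to 0.50), and their part in this was not tested. It was the lowest leukemia array for 40 of 62 tested repair genes (64.5%), against 43.3% of all tested genes. It lay at least 0.5 log2 below both other leukemia arrays for 17 of them (27.4%, against 12.3% of all tested genes), among them Rad54l, Mlh3, Fancf, Parp3, Rad54b, Fancg, Parp1, Atm and Xrcc6. The median difference from the wild-type mean was -0.19 on leukemia array 1, -0.08 on array 2 and 0.10 on array 3, whereas over all tested genes it was -0.10, -0.09 and -0.05. Without leukemia array 1, 28 repair genes passed (45.2%, against 48.5% of all tested genes), 13 higher and 15 lower. Of the 22 calls 20 remained, those of Rad51b and Xrcc5 were lost, and Chek2, Ercc1, Fance, Fancg, Fancl, Parp3, Rad54l and Xrcc6 were added.

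**Figure D5:**
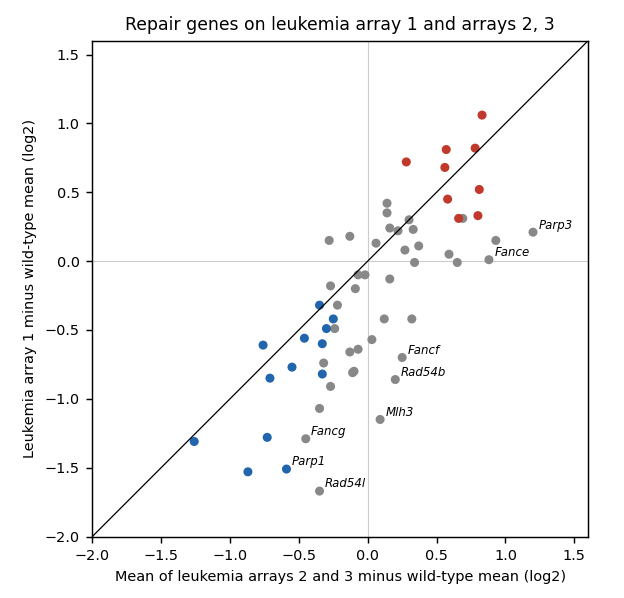
For each of the 62 tested repair genes, leukemia array 1 minus the wild-type mean (vertical axis) against the mean of leukemia arrays 2 and 3 minus the wild-type mean (horizontal axis), both in log2, with the line of equality. Colours give the calls over all arrays as red for higher, blue for lower and grey for not passed; 47 of the 62 points lie below the line, Rad54l, Mlh3 and Parp1 among them.

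Probe sets of 1 gene did not always give 1 answer. The 65 genes had 139 probe sets, and 41 genes had more than 1. Of 44 further probe sets above the filter for tested genes, 8 were opposite in sign to the chosen one, and of the 9 changed genes with such a further probe set, Parp1 had one of opposite sign. Rad18 and Apex1 were alike in direction over all their probe sets.

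RefSeq promoters were matched by symbol for 55 of the 65 genes, and the same 250-base window was searched on both strands. The E2F words TTTCCCGC, TTTGGCGC, TTTGCCGC and TTTCGCGC, some of which can overlap a GC box, were found in 8 of 55 (14.5%), against 3.89% of the promoters of all tested genes. Those 8 were Chek2, Xrcc6, Fancg, Bard1, Brca2, Msh5, Msh3 and Nthl1, of which only Msh5 passed the test. CCAAT was found in 33 (60%, against 37% over all tested genes). It stood in 6 of 8 promoters of genes that rose and in 9 of 12 of genes that fell, which is 75% of each. GGGCGG was found in 61.8% against 61.2%, and stood in 3 of 8 promoters of genes that rose and 9 of 12 of genes that fell. CCGGAAG was found in 14.5% against 15.6%, in 2 of the 8 and 0 of the 12. These splits are counts without a test. Of the other words, TATAAA was found in 7.27% against 5.91%, the cell cycle word TTTGAA in 3.64% against 10.3%, and the NRF1 word in 0 against 1.81%.

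Some repair genes share a divergent promoter with a neighbour, meaning that the starts lie within 1000 bases on opposite strands. Among tested genes 15 such pairs held a repair gene, and both partners had the same sign in 9 of them (60%, against 57.1% of 522 pairs over all tested genes). In 3 pairs both genes passed, and each pair moved in the same direction. Apex1 (-0.42) and Osgep (-0.40, limma adjusted p = 0.0298) start 56 bases apart, Ercc8 (-0.49) and Ndufaf2 (-0.64, limma adjusted p = 0.0186) 113 bases apart, and Pms1 (0.64) and Ormdl1 (0.47, limma adjusted p = 0.0363) 67 bases apart. Over all tested genes 83.6% of the 61 pairs with both partners changed moved in the same direction. In contrast Mutyh fell beside Toe1 (0.01, limma adjusted p = 0.951) and Xrcc3 beside Zfyve21 (0.15, limma adjusted p = 0.644), which did not pass.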

How the data were processed

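Expression was measured on Affymetrix Mouse430_2 arrays in 3 leukemia and 3 wild-type samples, grouped by their titles. The authors deposited linear intensity values (3.31 to 18869), made with RMA per the submitters' processing notes, with further settings not given in the sources used here. The design had assumed log2 values, so the values were log2-transformed without a pseudocount, and the planned test was kept. Arrays with the same hybridization date entry in their run records were counted as 1 fluidics run (2 in all), which the records do not name as such. Chip lot (1) came from the same records, and 0 columns were not mapped.

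The table used here held 28821 probe sets, of which 23750 had 1 gene symbol, 677 several, 4355 none and 39 were controls. Of the 13146 genes 9715 passed the filter on dim genes (40th percentile on at least 3 arrays) and 3431 were left out. Groups were compared with limma 3.58.1 in R 4.3.3 (eBayes with an intensity trend, 4 residual degrees of freedom, two-sided, Benjamini-Hochberg over all tested genes, threshold 0.05, no covariate). The procedure was tested on simulated data in which each gene had the same spread in both groups. Unequal spread and an outlying array were not covered. The repair genes and all gene lists were chosen with earlier results of these data known. Named were all changed genes, a panel of 10, up to 2 unchanged genes per role and genes with a probe set of opposite sign, and up to 2 genes per direction of each wider list. Partner genes, the members named for their promoter or for leukemia array 1, and the cell cycle genes were added after their values were seen. Precision is limited by the number of arrays (6). Figures used matplotlib 3.10.9.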

Additional observations from a re-analysis of the deposited data

How the results depend on the processing

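Alternatives covered the dim filter, the probe set rule, centring and quantile normalization, log2(value + 16), the variance moderation, array weights, blocks, and leaving out each array; testing each probe set alone (21 repair genes changed) was added after seeing the data. Leaving out an array gave 6 to 28 changed repair genes against 22 (3 to 13 higher, 3 to 15 lower), 10 to 32 changed genes of the wider list against 26, and 2647 to 4716 of all tested genes against 4089. The lowest counts came without wild-type replicates, 10, 10 and 6 repair genes without replicates 1, 2 and 3. With array weights 14 repair genes were higher, and 46.8% of the tested repair genes changed against 48.4% of all tested genes. With the fluidics run as a block, where each change is that of leukemia array 1 alone against wild-type, 25 were lower and 54 genes of the wider list changed. With the run block 51.6% of the tested repair genes changed against 52.8% of all tested genes, so the rise in calls was not confined to repair genes. With the replicate block 16 repair genes changed (25.8%, against 36.7% of all tested genes) and 8 were lower. The replicate numbers were not taken to pair the samples, since they are not stated to do so. Deviations of same-numbered arrays correlated at -0.069, 0.050 and 0.030, and those of differently numbered arrays at -0.121 to 0.113. Such correlations cannot settle whether samples were paired.

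Since the groups of the 22 calls do not overlap, leaving out an array or the run block could not turn their signs. The sign turned under at least 1 alternative for 13 of 62 tested repair genes, of which 0 were among the 22 calls: Apex2, Fancf, Fanci, Nthl1, Rad50, Rad51ap1, Rad54b and those that follow. Values are given for Atr (-0.13 with the run block, -0.02 to 0.16 on leaving out an array), Ercc3 (0.05 on centring, 0.18 with the run block, -0.13 to 0.06 on leaving out an array), Ercc4 (0.50 with the mean of probe sets, 0.15 with the run block, -0.28 to 0.07 on leaving out an array), Mlh3 (-0.63 to 0.09 on leaving out an array), Wrn (-0.01 with the run block) and Xrcc4 (0.03 on quantile normalization, -0.15 to 0.01 on leaving out an array). Beyond what an alternative leaves out, the cause was not tested. With the run block the changes of Msh5 (0.31) and Pms1 (0.33) were over 1.5 times smaller and did not pass, and those of Ercc6l (-0.82), Rad21 (0.72) and Parp1 (-1.51) over 1.5 times larger. The change of Rad21 was 0.95 with the mean of probe sets. No detection calls were used, so small values near the filter have no bound of their own.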
